A study of Mus musculus with 12 samples.

Results

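The 10 genes described here are Pou5f1, Sox2, Sall4, Nr0b1, Tdgf1, Utf1, Dppa5a, Dppa3, Upp1 and Tcf15, general pluripotency genes taken by name from the 55401 genes counted. They were compared between totipotent potential stem (TPS) cells and extended pluripotent stem (EPS) cells of the mouse by sequencing of oligo(dT)-selected RNA. Both groups had 3 lines with 2 technical replicates of each, which made 12 libraries. The TPS lines were grown on feeder cells in the medium that the labels call VCED. The study's medium for TPS cells is named CPEC, after CHIR99021 (an inhibitor of GSK3), VPA (of histone deacetylases), EPZ004777 (of DOT1L) and CD1530, which activates the retinoic acid receptor RARγ. The EPS lines were grown on feeder cells in LCDM medium, which contains LIF, CHIR99021, dimethindene maleate and minocycline, so feeders and the GSK3 inhibitor are common to both groups. That VCED and CPEC name the same medium is not stated in the sources used here and was assumed. TPS cells were made in the study from EPS or ES cells and from 2-cell embryos, and the origin of each sequenced line, and whether TPS and EPS lines of the same number are related, are not given in the sources used here. Medium and cell state therefore cannot be told apart. Separate cultures or clones are not described for the lines either, and the p-values measure the spread between the lines as labelled.

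Pluripotent cells are held in their state by a network of transcription factors that bind each other's genes and their own. Pou5f1, which encodes OCT4, and Sox2 form its centre and bind DNA together at composite sites, and Sall4 and Nr0b1 are nuclear partners of this core. Several other genes that such cells express at high levels, among them Dppa5a, Dppa3, Tdgf1 and Utf1, are targets of the core factors and serve as markers of the inner cell mass, of the germ line or of embryonic stem cells.

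Expression is given as CPM, counts scaled to library totals with TMM factors, for the summed technical replicates of a line. Lines held between 29877215 and 38466294 counts, and the members had between 143 counts (Tcf15) and 54563 counts (Dppa5a) in a library. All 10 members passed the filter on low counts, as did 17468 genes in all. By edgeR's quasi-likelihood test, 3 of the 10 members (Pou5f1, Tdgf1 and Dppa5a) had lower expression in TPS lines (adjusted p under 0.05), against 7.34% of all tested genes called lower. No member was called higher by edgeR, against 14.4% of all tested genes. At an unadjusted p under 0.05 in the same test 6 members were lower (Sox2, Nr0b1 and Upp1 beside the 3 called), against 15.2% of all tested genes, and 1 member, Tcf15, was higher, against 21.8%. DESeq2 called 6 members lower and Tcf15 higher, where it called 11.0% of all genes lower and 17.9% higher. The median log2 fold change of the members, TPS minus EPS, was -0.63, beside -0.004 over all tested genes. Every TPS line lay below every EPS line for 5 members, an arrangement found in 19.1% of all tested genes, and the lines overlapped for the other 5. For 0 members did every TPS line lie above every EPS line, which was so for 23.6% of all tested genes. With library totals in place of TMM factors the median of all genes moved to 0.14, and the same 3 members were called.

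**Figure D1:**
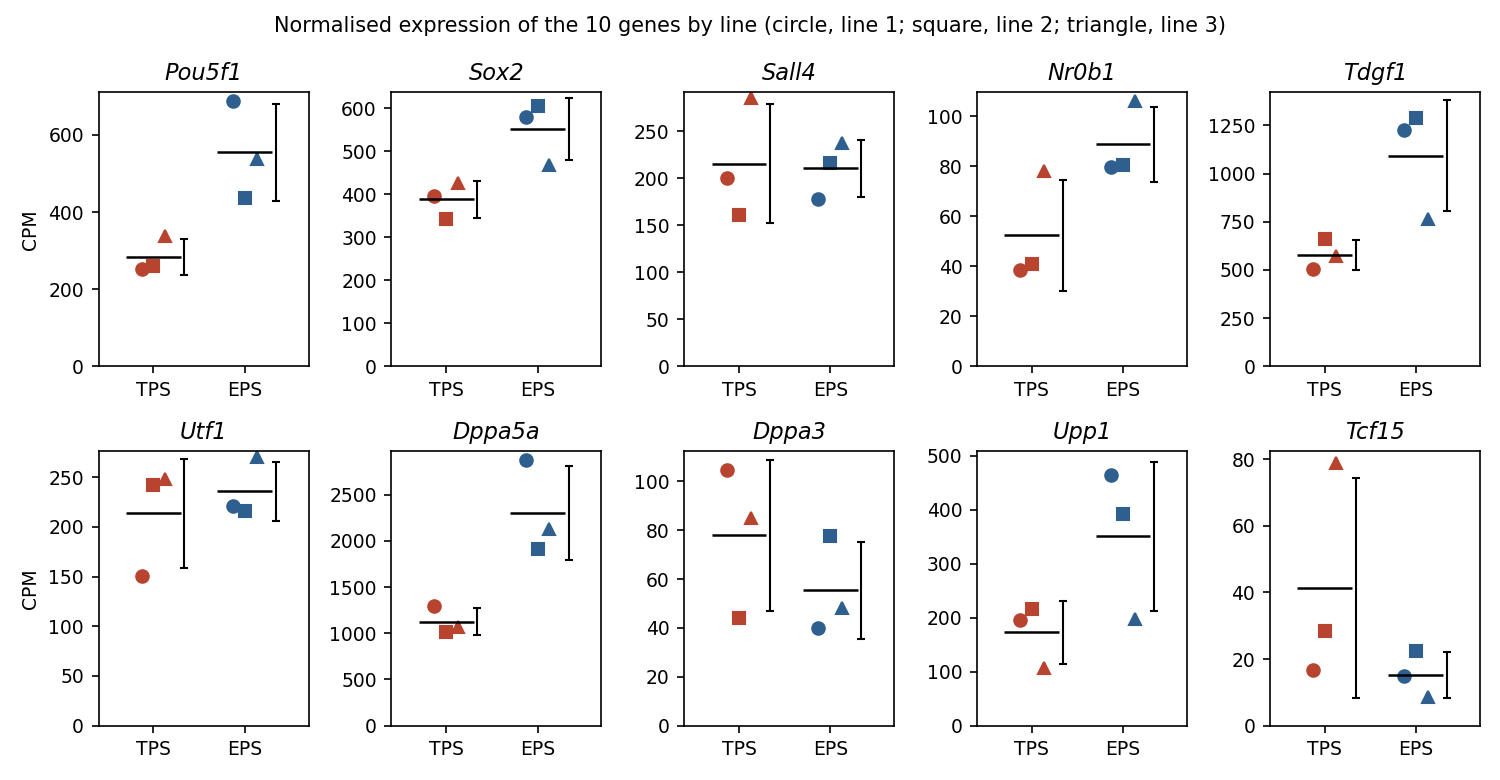
CPM of each of the 10 genes in the 3 TPS lines (red) and 3 EPS lines (blue); the horizontal bar is the mean of 3 lines, the vertical bar to its right is ± 1 SD, and each vertical axis starts at 0. TPS lines lie wholly below EPS lines for Pou5f1, Sox2, Nr0b1, Tdgf1 and Dppa5a, while TPS line 3 stands high for Tcf15 and Nr0b1.

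The hexamer AGGTCA, which nuclear receptors bind alone or repeated, was searched for because the CPEC cocktail contains a retinoic acid receptor agonist. Repeats of it were not searched for. Of the 6 genes with promoter windows, Pou5f1, Sox2 and Nr0b1 are printed because they held the hexamer in the 250 bases before the start. The printed sequences are therefore a choice made on the hexamer. RefSeq windows on GRCm38.p6, running from 250 bases before to 50 bases after an annotated start, were held for Pou5f1, Sox2, Nr0b1, Tdgf1, Utf1 and Upp1, in 9 windows. Sall4, Dppa5a, Dppa3 and Tcf15 had no entry. The 250 bases before the start are printed 5′ to 3′ on the strand of the gene, with AGGTCA, or its reverse complement TGACCT, in capitals. They lie at chr17:35505782-35506031 (plus strand) for Pou5f1, at chr3:34649745-34649994 (plus strand) for Sox2 and at chrX:86191525-86191774 (plus strand) for Nr0b1.
Pou5f1: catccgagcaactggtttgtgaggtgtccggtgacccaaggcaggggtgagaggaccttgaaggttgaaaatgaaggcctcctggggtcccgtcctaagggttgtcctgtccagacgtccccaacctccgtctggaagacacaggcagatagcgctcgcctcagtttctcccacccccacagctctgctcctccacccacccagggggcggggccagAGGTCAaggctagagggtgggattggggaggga
Sox2: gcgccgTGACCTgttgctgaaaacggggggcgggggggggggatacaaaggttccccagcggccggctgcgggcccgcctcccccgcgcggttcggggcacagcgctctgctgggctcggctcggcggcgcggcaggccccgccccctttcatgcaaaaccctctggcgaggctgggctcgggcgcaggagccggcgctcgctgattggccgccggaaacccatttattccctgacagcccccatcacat
Nr0b1: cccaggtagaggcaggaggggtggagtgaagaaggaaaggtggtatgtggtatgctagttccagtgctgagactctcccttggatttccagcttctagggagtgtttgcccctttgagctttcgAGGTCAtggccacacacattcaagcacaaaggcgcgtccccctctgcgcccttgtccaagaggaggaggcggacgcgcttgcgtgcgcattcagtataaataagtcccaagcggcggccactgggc
The hexamer began 33 bases before the start of Pou5f1 and 126 bases before that of Nr0b1, and on the opposite strand 244 bases before that of Sox2. These distances are to the RefSeq start of each window. For Sox2 the whole window, which ends at base 34650044, lies before the gene span given below, which begins at base 34650405. A window of Upp1 also held it, on the opposite strand beyond the start, so it was found in 4 of the 6 genes and 4 of the 9 windows, beside 16.3% of all 32851 windows. The windows of Tdgf1 and Utf1 did not contain these letters. Of the 6 genes edgeR called Pou5f1, with the hexamer, and Tdgf1, without it, lower, and a link of the hexamer to expression was not tested. The GC box GGGCGG was found in 5 of the 6 genes and 7 of the 9 windows (35.7% of all windows; a pair of Upp1 windows overlap and hold the same site), including the only window of Utf1, where it occurred 4 times. TATAAA was found in that of Nr0b1 alone (13.6% of all windows), CATTGTT, a motif bound by SOX factors, in the second window of Pou5f1 alone (3.78%), and the octamer ATGCAAAT in none (1.74%). CCAAT was found in 2 of the 6 genes and 3 of the 9 windows (37.4% of all windows), those of Pou5f1 and Sox2. Both strands were searched for each motif, no match overlapped a match to another motif, a pair of adjoining GC boxes in Utf1 had a base in common, and a match is a description of letters only.

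Pou5f1 (ENSMUSG00000024406.16, chr17:35506018-35510772, plus strand) was present in the TPS lines at 51.2% of its mean level in the EPS lines. It stood at 253 CPM in TPS line 1, 261 in line 2 and 338 in line 3, and at 689, 436 and 538 CPM in EPS lines 1, 2 and 3. The groups did not overlap. The log2 fold change was -0.97 ± 0.20 (SE, n = 3 lines per group, edgeR adjusted p = 0.0158), and DESeq2 gave an adjusted p of 0.000259. With 1 line left out at a time, the edgeR call stood in 5 of 6 fits and was lost without TPS line 1 (log2 fold change -0.89, edgeR adjusted p = 0.0536). In bulk RNA a smaller number of Pou5f1-expressing cells and less Pou5f1 RNA per cell cannot be told apart, and the same holds for every gene below. An antisense gene annotated across Pou5f1, Gm19553, had 0 counts in every line.

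Sox2 (ENSMUSG00000074637.7, chr3:34650405-34652461, plus strand), the HMG-box partner of OCT4, lay lower in every TPS line too and stood at the edge of the threshold. The TPS lines held 397, 342 and 428 CPM and the EPS lines 579.6, 606 and 469 CPM. EPS line 3 was the nearest to the TPS range. Its log2 fold change was -0.51 ± 0.15 (SE, n = 3 lines per group, 95% interval -0.86 to -0.15), and the edgeR adjusted p of 0.0507 fell just short of the threshold. DESeq2 called Sox2 lower (adjusted p = 0.0216), and so did edgeR without EPS line 3 (log2 fold change -0.62, edgeR adjusted p = 0.0417). The other 5 fits that left out 1 line did not call it (edgeR adjusted p from 0.0825 to 0.144), nor did library totals in place of TMM factors (log2 fold change -0.36, edgeR adjusted p = 0.122) or the line number as a replicate block (edgeR adjusted p = 0.11). Limma-voom also called Sox2 (adjusted p = 0.0478). So did edgeR with RLE factors (adjusted p = 0.0474), no filter on low counts (0.029) or technical replicate 1 alone (0.0488). Sox2 was called with the 12 libraries as separate samples as well (edgeR adjusted p = 0.000785). EdgeR did not call Sox2 with upper quartile factors (adjusted p = 0.0693), at least 1 CPM in 3 lines (0.0603) or technical replicate 2 alone (0.0669). Sox2ot, a long RNA gene that spans Sox2 on the same strand, stayed at 0.42 ± 0.44 CPM in TPS lines and 0.45 ± 0.40 CPM in EPS lines (SD, n = 3).

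Sall4 (ENSMUSG00000027547.17, chr2:168748332-168767943, minus strand), a zinc finger repressor and OCT4 partner, overlapped between the groups. The TPS lines stood at 200, 161 and 285 CPM and the EPS lines at 178, 216 and 237 CPM. The lowest and the highest of the 6 values were both TPS lines, so the EPS lines lay inside the TPS range. The edgeR estimate was a log2 fold change of 0.03 ± 0.22 (SE, edgeR adjusted p = 0.926), with a 95% interval from -0.48 to 0.55, which leaves room for a change of that size in either direction. Its sign turned without TPS line 3 (-0.22) and without EPS line 1 (-0.10). Among the paralogs of Sall4, Sall1 fell from 164 CPM in EPS lines to 40.1 CPM in TPS lines (log2 fold change -2.03 ± 0.27 (SE), edgeR adjusted p = 0.00391), Sall2 rose from 4.97 to 15.3 CPM (1.62 ± 0.29, edgeR adjusted p = 0.00982), and Sall3 was not called.

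The ratio of 1 gene to another within a line does not depend on the scaling between libraries. On counts per exon length, Pou5f1 amounted to 0.584, 0.697 and 0.724 of Sox2 in the TPS lines and to 1.09, 0.659 and 1.05 of Sox2 in the EPS lines. EPS line 2 lay inside the TPS range. These levels rest on the length used for Pou5f1, 2248 bases as the union of exons and 1362 bases in its longest transcript, while Sox2 has 2057 bases either way. With the longest transcript the ratio was 0.964, 1.15 and 1.19 in the TPS lines and 1.79, 1.09 and 1.73 in the EPS lines, so that Pou5f1 lay above Sox2 in 2 of 3 TPS lines and in all 3 EPS lines. The length cancels in the difference between the groups. On the union of exons, the mean log2 ratio was -0.59 ± 0.17 in TPS lines and -0.14 ± 0.40 in EPS lines (SD, n = 3), and a two-sided exact permutation test of this difference gave p = 0.3 (0.45 after Benjamini-Hochberg adjustment over the 45 ratios between members), where 3 lines against 3 cannot give less than 0.1. The log2 ratio of Pou5f1 to Sall4 was 1.73 ± 0.24 in TPS lines and 2.68 ± 0.50 in EPS lines (SD, n = 3), without overlap, and the same exact permutation test gave p = 0.1 (0.281 adjusted over the 45 ratios). The ratio of Pou5f1 to Dppa5a differed by 0.06 on the log2 scale and overlapped.

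Nr0b1 (ENSMUSG00000025056.4, chrX:86191764-86195947, plus strand) encodes DAX1, an orphan nuclear receptor that lacks the usual DNA-binding domain and binds OCT4 and LRH-1. It was at 38.6, 40.9 and 78.2 CPM in the TPS lines and at 79.6, 80.7 and 106 CPM in the EPS lines. TPS line 3 came close to the lowest EPS lines, while TPS lines 1 and 2 stayed at about equal, lower levels. The resulting log2 fold change of -0.76 ± 0.29 (SE, 95% interval -1.42 to -0.09) did not pass by edgeR (adjusted p = 0.096), whereas DESeq2 gave an adjusted p of 0.0485. Without TPS line 3 the fold change became -1.16 and passed (edgeR adjusted p = 0.0174). Nr0b1 also passed with the line number as a replicate block (log2 fold change -0.82, edgeR adjusted p = 0.0384). Nr5a2, which encodes LRH-1, was lower in TPS lines (log2 fold change -0.69 ± 0.18 (SE), edgeR adjusted p = 0.0353), while Nr0b2 and Nr5a1 were near 0 in all lines and were not tested.

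Utf1 (ENSMUSG00000047751.9, chr7:139943789-139945112, plus strand), a chromatin-bound factor of undifferentiated cells, overlapped between the groups. The TPS lines held 151, 242 and 248 CPM and the EPS lines 221, 216 and 270 CPM. Only TPS line 1 stood below the EPS range. The log2 fold change was -0.14 ± 0.21 (SE, edgeR adjusted p = 0.662), with a 95% interval from -0.63 to 0.34. Its sign turned without TPS line 1 (0.054) and with library totals in place of TMM factors (0.0021). Listed beside Utf1 were 2 textbook targets of OCT4 and SOX2, Fgf4 and Fbxo15. Fgf4, an FGF ligand that starts exit from the ground state, was lower in TPS lines (log2 fold change -1.40 ± 0.23 (SE), edgeR adjusted p = 0.00701). Fbxo15 was not called (0.21 ± 0.28 (SE), edgeR adjusted p = 0.616).

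Tcf15 (ENSMUSG00000068079.5, chr2:152143561-152149097, plus strand) encodes a basic helix-loop-helix factor best known from somites. The TPS lines stood at 16.6, 28.5 and 78.8 CPM and the EPS lines at 14.8, 22.5 and 8.65 CPM. TPS line 3 was far above all other lines, and TPS line 1 lay within the EPS range. The log2 fold change of 1.43 ± 0.58 (SE, 95% interval 0.08 to 2.79) was the largest upward value among the members and did not pass by edgeR (adjusted p = 0.118), while DESeq2 gave an adjusted p of 0.0262. Without TPS line 3 it was 0.56 (edgeR adjusted p = 0.426). None of the 7 genes listed as partners of Tcf15, its E-protein dimer partners Tcf3, Tcf4 and Tcf12, the inhibitors Id1, Id2 and Id3, and the related Scx, was called by edgeR, beside 7.34% lower and 14.4% higher over all tested genes, and 1 of them, Id1, had an unadjusted p under 0.05. It had the largest log2 fold change, at 20.0 CPM in TPS lines and 6.52 CPM in EPS lines (log2 fold change 1.62 ± 0.59 (SE), edgeR adjusted p = 0.0878), and DESeq2 called it (adjusted p = 0.0133).

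**Figure D2:**
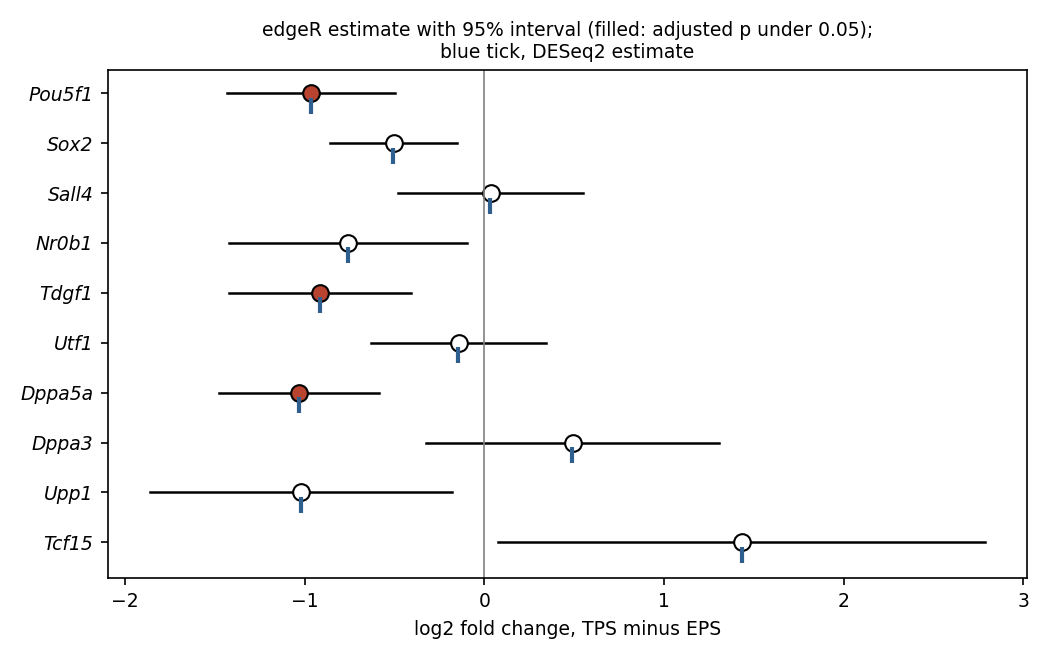
Log2 fold change, TPS minus EPS, of each of the 10 genes by edgeR (circle, filled where the adjusted p was under 0.05) with its 95% interval (line) and by DESeq2 (blue tick). The intervals of Pou5f1, Sox2, Nr0b1, Tdgf1, Dppa5a and Upp1 lie below 0, that of Tcf15 lies above 0, and those of Sall4, Utf1 and Dppa3 cross 0.

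Tdgf1 (ENSMUSG00000032494.12, chr9:110939603-110946158, minus strand) encodes CRIPTO, the membrane-anchored co-receptor through which NODAL signals to activin receptors. Its TPS lines held 506, 659 and 572 CPM and its EPS lines 1228, 1286 and 764 CPM. EPS lines 1 and 2 stood well above EPS line 3, and all 3 were above every TPS line. Its log2 fold change was -0.92 ± 0.22 (SE, n = 3 lines per group, edgeR adjusted p = 0.0239; DESeq2 adjusted p = 0.00118). Of the 6 fits with a line left out, the edgeR call stood in 2. It was lost without TPS line 1 (edgeR adjusted p = 0.0773), TPS line 3 (0.0738), EPS line 1 (0.0575) or EPS line 2 (0.0626), with fold changes from -0.91 to -0.80, and it was also lost with technical replicate 1 alone (log2 fold change -0.83, edgeR adjusted p = 0.0519). Of 8 genes listed for the same signalling branch 7 were tested (Cfc1 was not), and 2 were lower and 0 higher in TPS lines by edgeR, beside 7.34% and 14.4% of all tested genes. Those lower were the TGF-β family ligand Gdf3 (log2 fold change -1.22 ± 0.16 (SE), edgeR adjusted p = 0.00368) and the type I receptor gene Acvr1b (-0.64 ± 0.19, edgeR adjusted p = 0.0461). Nodal itself was at 67.9 CPM in TPS lines and 52.4 CPM in EPS lines and was not called. The NODAL antagonists Lefty1 and Lefty2 pointed in opposite directions, at 80.3 against 28.3 CPM and 88.5 against 213 CPM, and neither passed by edgeR (adjusted p = 0.0688 and 0.0782), though DESeq2 called both.

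Dppa5a (ENSMUSG00000060461.5, chr9:78367052-78368177, minus strand), which encodes a KH-domain RNA-binding protein, had the lowest adjusted p-value of the 10 genes. The TPS lines stood at 1296, 1012 and 1070 CPM and the EPS lines at 2874, 1907 and 2123 CPM. No TPS line reached the lowest EPS line, and EPS line 1 was the highest of all. The edgeR estimate was a log2 fold change of -1.03 ± 0.19 (SE, n = 3 lines per group, edgeR adjusted p = 0.0108; DESeq2 adjusted p = 2.05e-05). Of the 3 genes called by edgeR it was the only one whose call held in all 6 fits that left out 1 line, with fold changes from -1.17 to -0.87. There were 4 genes with a transcript at least 95% identical to that of Dppa5a over at least 50% of its length, and their counts together came to between 0.383% and 1.22% of those of Dppa5a in a line. Ooep, a KH-domain gene of the oocyte 7932 bases away on the same strand, was not called (log2 fold change -0.12 ± 0.22 (SE), edgeR adjusted p = 0.738). The KH-domain gene Khdc1a, also listed beside Dppa5a, was higher in TPS lines at a low level, 2.67, 0.596 and 0.286 CPM against 0, 0.0294 and 0.171 CPM in EPS lines (edgeR adjusted p = 0.0448, DESeq2 adjusted p = 0.00547).

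Dppa3 (ENSMUSG00000046323.8, chr6:122626410-122630272, plus strand) encodes STELLA, which protects methylated DNA in the zygote and keeps UHRF1 from chromatin. The TPS lines held 105, 44.2 and 84.9 CPM and the EPS lines 40.1, 77.8 and 48.3 CPM. TPS lines 1 and 3 were above all EPS lines, but TPS line 2 was near the bottom. This gave a log2 fold change of 0.49 ± 0.35 (SE, edgeR adjusted p = 0.35), with a 95% interval from -0.32 to 1.31. The value moved by over 1.5 times without any of 4 lines, to 0.22 without TPS line 1, 0.28 without EPS line 1, 0.77 without TPS line 2 and 0.79 without EPS line 2, and none of these passed by edgeR (adjusted p from 0.113 to 0.73). Uhrf1, which recruits the maintenance DNA methyltransferase, was lower in TPS lines (log2 fold change -0.51 ± 0.13 (SE), edgeR adjusted p = 0.027), and Dnmt1, that enzyme, was not called (-0.26 ± 0.12, edgeR adjusted p = 0.143). Gdf3, described above, is also the nearest tested coding gene at lower coordinates, 16323 bases from Dppa3.

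Upp1 (ENSMUSG00000020407.13, chr11:9118103-9136170, plus strand) encodes uridine phosphorylase, which splits uridine to uracil in pyrimidine salvage. The TPS lines stood at 196, 217 and 106 CPM and the EPS lines at 465, 391 and 197 CPM. Line 3 was the lowest in both groups, and EPS line 3 fell between the values of TPS lines 1 and 2. The log2 fold change was -1.02 ± 0.36 (SE, 95% interval -1.86 to -0.18), of the same size as that of Dppa5a with a wider error, and did not pass by edgeR (adjusted p = 0.0817; DESeq2 adjusted p = 0.0191). Without EPS line 3 it was -1.32 and passed (edgeR adjusted p = 0.0315). Among 7 other genes of uridine and pyrimidine handling 1 was lower, 1 higher and 5 not called, near the shares over all tested genes (7.34% lower and 14.4% higher). Uck2, the uridine-cytidine kinase of growing cells, was lower in TPS lines (log2 fold change -0.78 ± 0.12 (SE), edgeR adjusted p = 0.0059), and cytidine deaminase (Cda) was higher (1.56 against 0.086 CPM, edgeR adjusted p = 0.0281).

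Technical replicates of a line were compared as well. The median difference between the technical replicates of a line ranged over the members from 0.01 to 0.15 on the log2 scale, and the largest difference, for Tdgf1 in EPS line 3, was 0.39, as large as the span of the TPS lines for that gene (0.38). The technical replicates of EPS line 3 stood apart, since chi-square divided by its degrees of freedom was 22.3 over genes there, 9.61 in EPS line 1 and 2.58 to 3.83 in the other lines, and EPS line 3 had the largest technical difference for 7 of the 10 members. Without EPS line 3, edgeR called 5 members lower in place of 3, while the count of all genes called in either direction went from 3791 to 3004. Between the lowest and the highest TPS line the members spanned from 0.32 (Sox2) to 2.25 (Tcf15) on the same scale. TPS line 3 had the highest value of the TPS lines for 6 of the 10 members.

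The tested genes whose log2(CPM + 1) pattern over the 6 lines was most like that of a member were found among 9734 genes with a mean of at least 10 CPM. For Pou5f1 these were Slc9a8 and Ivd, with Pearson's r of 0.999 and 0.998 over the 6 lines, and 221 genes had r over 0.95. For Dppa5a they were Anp32a (0.997) and Gm10275 (0.996), for Tdgf1 Cyp4f13 and Ndufb11 (both 0.997), and for Sox2 Ctdsp2 (0.995) and Calcoco1 (0.986). For Tcf15 they were Pim1 (0.993) and Ogdh (0.986). Few genes had r over 0.95 with Tcf15 (5), Utf1 (6), Dppa3 (8) or Sall4 (11). The genes named were picked as the highest of 9734 over only 6 lines, so r near 1 can arise from the search alone. The count of genes that would pass 0.95 by chance was not computed, and no shared control of these genes can be read from r. The 6 lines fall into the groups compared, so for genes that differ between them a high r describes that difference as well as the lines.

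**Figure D3:**
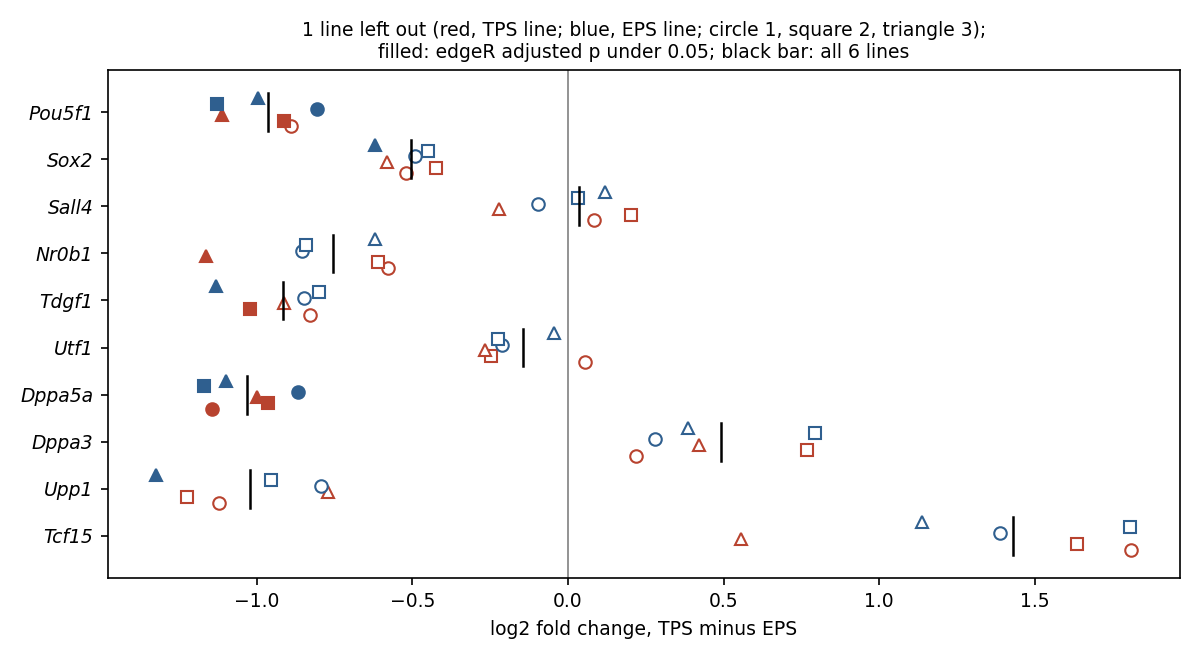
Log2 fold change, TPS minus EPS, of each of the 10 genes in the 6 edgeR fits that left out 1 line, with the value from all 6 lines as a black bar; filled symbols mark an adjusted p under 0.05. Dppa5a is filled in all 6 fits and Pou5f1 in 5, and Tcf15 drops to 0.56 without TPS line 3.

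Levels can be set side by side between genes only per length, and TPM over the union of exons was used for this. In EPS lines the order of mean TPM ran Dppa5a (9059.8), Tdgf1 (1020), Sox2 (659.7), Pou5f1 (602), Utf1 (477), Upp1 (433), Dppa3 (155), Nr0b1 (122), Sall4 (94.7) and Tcf15 (38.5). In TPS lines it ran Dppa5a (5117.5), Tdgf1 (622.5), Sox2 (532), Utf1 (491), Pou5f1 (356), Upp1 (248), Dppa3 (245), Tcf15 (119), Sall4 (109.6) and Nr0b1 (81.9). With the longest transcript as the length Pou5f1 was the third in both groups (466 TPM in TPS lines and 781 in EPS lines), above Sox2 and Utf1, so its place in the order depends on the length used. Under both lengths Nr0b1 had the higher mean in EPS lines and Tcf15 in TPS lines. On the union of exons, neighbours in the TPS order overlapped over lines except Dppa5a and Tdgf1. In the EPS order, Dppa5a and Tdgf1, Tdgf1 and Sox2, Upp1 and Dppa3, and Sall4 and Tcf15 did not overlap, and the other neighbours did. TPM carries no factor for composition, and on this scale the mean of Utf1 was slightly higher in TPS lines, against the direction of its CPM. The TPS and EPS lines of Nr0b1 overlapped in TPM, while those of Pou5f1, Sox2, Tdgf1 and Dppa5a did not.

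The summed TPM of the 10 genes was 7922.5 ± 459.7 in TPS lines and 12661 ± 982 in EPS lines (SD, n = 3). The TPS lines lay between 7435.4 and 8348.8 and the EPS lines between 11897 and 13769. Dppa5a alone made up 64.5% ± 4.56 of the sum in TPS lines and 71.4% ± 4.22 in EPS lines (SD, n = 3), so that the sum follows this gene. As a share of all counts, with no length or scaling factor, the members took 0.319% to 0.347% in TPS lines and 0.468% to 0.581% in EPS lines.

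**Figure D4:**
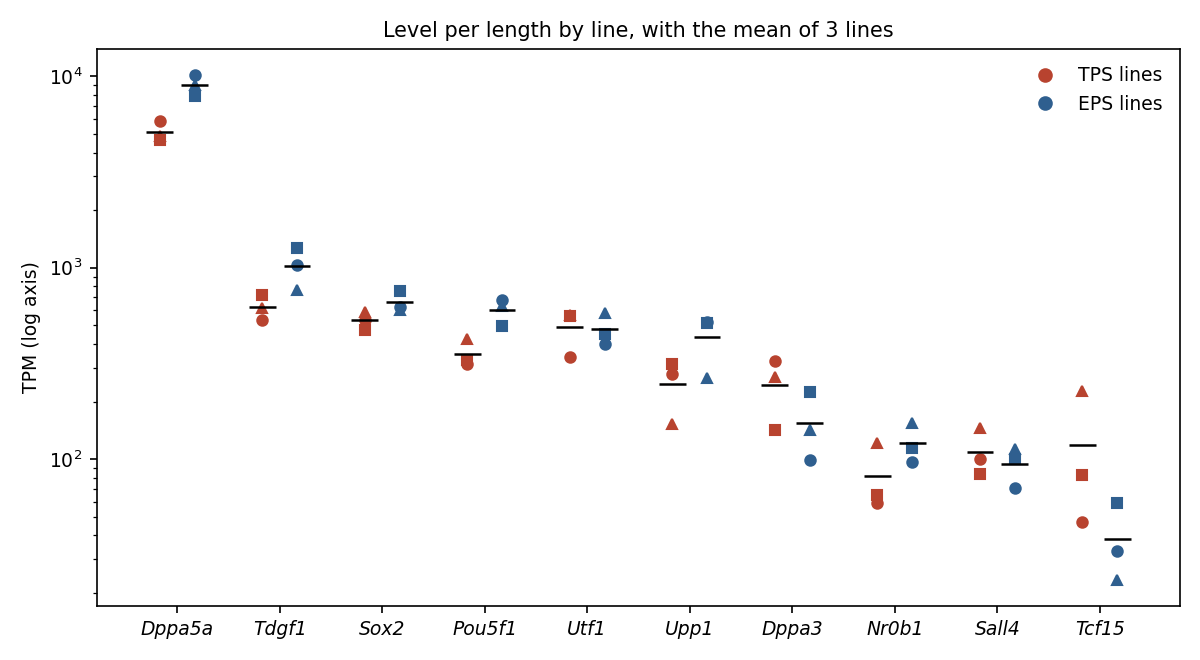
TPM of each of the 10 genes in the 3 TPS lines (red) and 3 EPS lines (blue) on a logarithmic axis, ordered by the EPS mean, with bars at the means of 3 lines. Dppa5a stands far above the others in both groups, and Tcf15 has the widest spread of the TPS lines.

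In the wider network 6 genes, Klf4, Tfcp2l1, Fgf4, Esrrb, Tbx3 and Tet1, were called lower with log2 fold changes below that of any member, though the upward change of Tcf15 (1.43) was larger in size than all of these but Klf4 and Tfcp2l1. Of 29 listed network genes, 11 were lower and 4 higher in TPS lines by edgeR and 14 were not called, beside 7.34% lower and 14.4% higher over all tested genes. The 4 of 29 called higher are a share near that of all genes, and the median of the listed log2 fold changes was -0.36 beside -0.004 over all tested genes. Klf4, a naive-state transcription factor, went from 690 CPM in EPS lines to 109 CPM in TPS lines (log2 fold change -2.66 ± 0.25 (SE), edgeR adjusted p = 0.00149). The naive-state factor genes Tfcp2l1 (-1.82 ± 0.20), Esrrb (-1.36 ± 0.14), Tbx3 (-1.28 ± 0.20) and Klf5 (-0.98 ± 0.14) fell as well, with edgeR adjusted p-values from 0.00219 to 0.00622. Other naive-state genes of the list were not called, among them Klf2 (-0.49 ± 0.36 (SE), edgeR adjusted p = 0.355), Zfp42 (-0.68 ± 0.68, 0.507) and Prdm14 (-0.15 ± 0.30, 0.755), whose lines overlapped between the groups. The 4 genes called higher were Dppa2 (1.45 ± 0.28), Pou3f1 (1.90 ± 0.50), Sox3 (2.14 ± 0.27) and Fgf5 (2.11 ± 0.63), of which Pou3f1, Sox3 and Fgf5 are known from the formative and primed epiblast. Other listed genes known from that stage were not called, namely Otx2 (-0.36 ± 0.46 (SE), edgeR adjusted p = 0.609), Zic2 (-0.02 ± 0.35, 0.974) and Dnmt3b (0.22 ± 0.26, 0.572). Pou3f1 and Sox3 are paralogs of Pou5f1 and Sox2 and stood at 28.0 ± 19.96 and 15.6 ± 3.99 CPM in TPS lines (SD, n = 3). The other listed paralogs of Pou5f1 and Sox2 had negative log2 fold changes and were not called (edgeR adjusted p from 0.14 to 0.264). These were Pou2f1 (-0.35 ± 0.21 (SE)), Pou2f3 (-0.77 ± 0.36), Sox1 (-0.81 ± 0.49) and Sox15 (-0.46 ± 0.20). Fgf5 was at 1.08 CPM or less in every line, and DESeq2 did not call it. Of the 43 paralogs and partners listed for the members, 40 were tested, 7 were lower, 5 higher and 28 not called, beside 7.34% lower and 14.4% higher over all tested genes, with a median log2 fold change of 0.12. The network and partner lists have 5 genes in common.

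**Figure D5:**
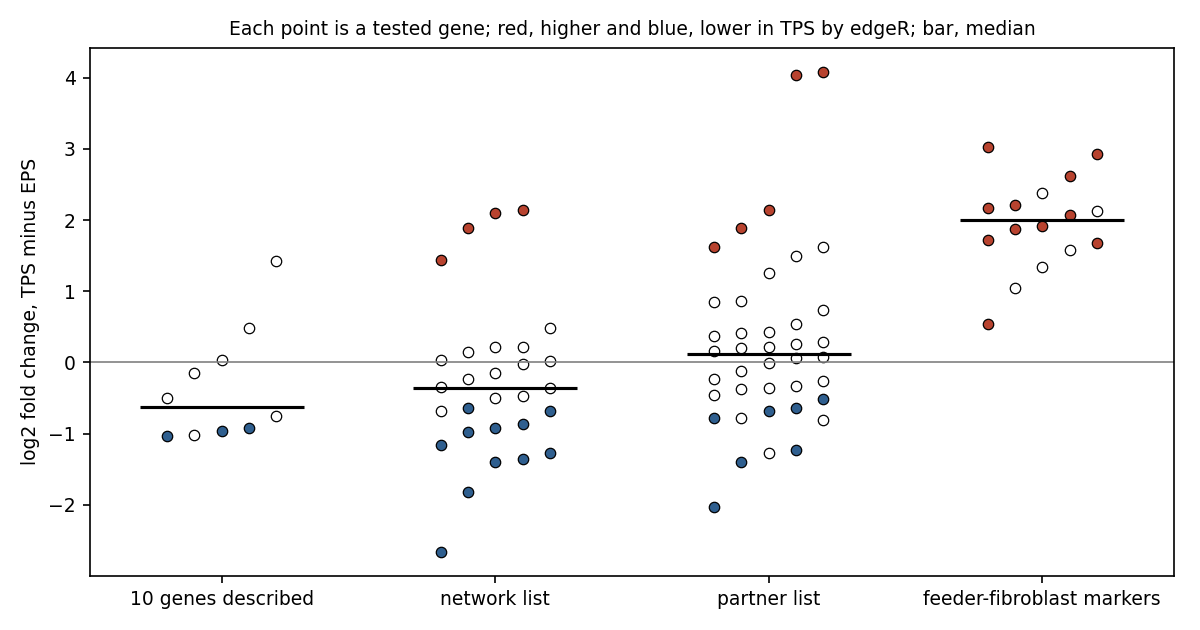
Log2 fold change, TPS minus EPS, of every tested gene in 4 lists (points; red, called higher, blue, called lower in TPS lines by edgeR, white, not called) with the median of each list as a bar. The medians are -0.63 for the 10 genes, -0.36 for the network list, 0.12 for the partner list and 2.00 for the feeder-fibroblast markers.

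Markers of other cell types moved with the groups. Of 16 feeder-fibroblast genes, edgeR called 11 higher in TPS lines, beside 14.4% of all tested genes, and none lower, and at an unadjusted p under 0.05 none was lower either. Their summed counts took 0.413% to 0.696% of all counts in TPS lines and 0.0485% to 0.162% in EPS lines, and no marker was at 0 in either group. TPS line 1 held the highest share, and without it Pou5f1, Tdgf1 and Dppa5a had log2 fold changes of -0.89, -0.83 and -1.14, of which that of Dppa5a passed. EPS line 1 held the lowest share, and without it the 3 values were -0.81, -0.85 and -0.87, of which those of Pou5f1 and Dppa5a passed. All 9 matched markers of 10 listed for the 2-cell stage were higher in TPS lines and had at most 3 counts in any EPS library, with 0.0285% to 0.0389% of all counts in TPS lines. Of the primitive endoderm markers 5 of 8 were higher (0.0352% to 0.0485% of all counts against 0.00363% to 0.0118%), of the germ cell markers 4 of 6 (0.0160% to 0.0294% against 0.00333% to 0.00425%), and of the 7 trophectoderm markers tested (Elf5 was not) 2 were higher and Tead4 was lower (0.0165% to 0.0647% against 0.0165% to 0.0248%). Most of the primitive endoderm share was the collagen gene Col4a1. It held 354, 276 and 302 CPM in TPS lines 1, 2 and 3, where all these markers together held 465.5, 331 and 384.5 CPM. In EPS lines Col4a1 held 21.4, 72.3 and 90.0 CPM of 39.7, 95.9 and 120.5 CPM. Gata6 and Sox17, also called, had means of 8.62 and 2.46 CPM in TPS lines, and Gata4, Sox7 and Foxa2 were not called. The upper end of the trophectoderm share came from TPS line 2 alone, beside 0.0165% and 0.0247% in TPS lines 1 and 3. Krt8 and Krt18 stood at 243 and 198 CPM in TPS line 2. They stood at 4.84 and 8.76 CPM in TPS line 1 and at 32.7 and 26.5 CPM in TPS line 3. The presence of 5 pluripotency markers was looked at in both groups, and Pou5f1 and Sox2 among them are members described above. Their presence cannot tell TPS from EPS cells apart. Every marker was present in both groups, with Lin28a at 221 CPM in TPS lines and 419 CPM in EPS lines (edgeR adjusted p = 0.0372), Dppa4 at 85.8 and 84.3 CPM and L1td1 at 250.8 and 318 CPM. For Pou5f1, Sox2 and Lin28a every TPS line was below every EPS line. The part of these other cell types in the differences of the members was not tested.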

How the data were processed

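The authors trimmed reads with fastp 0.19.7, mapped them with STAR 2.7.3a to GRCm38.p6 and deposited raw counts per gene for each library, with no normalization. The counting tool, annotation release, use of strand and handling of reads with several matches are not given in the sources used here, so reads of overlapping, antisense or near-identical genes could have been shared or lost. Gene identifiers were matched to GENCODE M21 without version (55141 of 55401, all 10 members). The 2 technical replicates were summed to 1 count per line. Library totals ran from 13676051 to 21821707. TPS and EPS lines were compared, 3 against 3, by edgeR 4.0.16 (quasi-likelihood test, TMM, filterByExpr with a minimum of 10 counts, R 4.3.3) with two-sided p-values adjusted by Benjamini-Hochberg over 17468 genes and a threshold of 0.05. The standard error is the log2 fold change divided by the square root of F. Alternatives were DESeq2 1.42.0, limma-voom 3.58.1, other factors, filters and replicate units, and each line left out. TPM used the union of annotated exons, and near-identical transcripts were found with blastn 2.17.0. The tests were also run on simulated counts, with set changes larger than those of the members and the same dispersion for every gene. That run does not cover changes of the members' size or a spread that differs between genes.

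The genes named are the 10 members, the network and partner lists, marker lists, overlapping and neighbouring genes, near-identical genes and, for each member, the 2 genes of highest correlation. Members and lists were chosen with earlier results of these data known. The values of 1 listed gene are not reported here. Promoter sequences are from RefSeq on GRCm38.p6, the build of the counts.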

Additional observations from a re-analysis of the deposited data

How the results depend on the processing

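Each of the 10 genes was refitted under 17 other settings, which gave 170 fold changes. Of these, 140 kept their direction and side of the threshold, 20 gained a call and 6 lost one (Pou5f1 and Tdgf1, as described above). Direction turned in 4, all of them far from any call. The log2 fold change of Sall4 ran from -0.22 to 0.20 over the fits without 1 line and was negative without TPS line 3 and without EPS line 1. That of Utf1 ran from -0.27 to 0.054, positive without TPS line 1, and was 0.0021 with library totals alone. The count of members lower in TPS lines, 3 by edgeR, was 6 with DESeq2, with no filter on low counts or with the 12 libraries as separate samples, and 0 at an adjusted p under 0.01. All genes called rose as well under the first 2 of these, from 3791 to 5032 with DESeq2 and 4825 with no filter. Leaving out 1 line gave 1 to 5, with 1 without TPS line 1 and 5 without EPS line 3. The count of members higher, 0 by edgeR, was 1 under DESeq2, no filter or 12 libraries. Treating technical replicates as separate samples also raised the partner genes called from 12 to 20 and all genes called from 3791 to 7677, and an adjusted p under 0.01 left 1131. Without 1 line the partner genes called ran from 7 to 11 (7 without TPS line 3) and all genes called from 2110 to 3004, with 2110 without TPS line 3, 2321 without TPS line 1 and 2448 without EPS line 2. With the line number as a replicate block, 5 members were lower (Nr0b1 and Upp1 were added) and 2435 genes were called. Deviations of same-numbered lines from their group means correlated at 0.02, -0.12 and 0.04, and those of differently numbered lines at -0.24 to 0.23. Same-numbered lines were thus no more alike than others. With 3 lines a group the deviations depend on each other, so this check cannot show that lines are unpaired. Whether same-numbered lines are related is not given in the sources used here. The network count of 15 ran from 10 to 12 without 1 line. The difference in summed TPM, TPS minus EPS, was -4739 and ran from -5277 to -3977 over the settings run for it, a shift of less than the SD of the EPS lines. The difference between the groups in the log2 ratio of Pou5f1 to Sox2, -0.45, ran from -0.68 (without EPS line 2) to -0.32 (without EPS line 1), and gene length cancels in it. The mean log2 ratio itself turned sign with the longest transcript as length, from -0.59 to 0.14 in TPS lines and from -0.14 to 0.59 in EPS lines, since Pou5f1 then has fewer bases. The cause of these shifts was not tested. With 3 lines a group, the 95% intervals of the log2 fold changes reach from -0.48 to 0.55 for Sall4, from -0.63 to 0.34 for Utf1 and from -0.32 to 1.31 for Dppa3.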

Other observations

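Of the nearest tested coding genes on both sides of the members, 20 in all, edgeR called 2 lower in TPS lines and 2 higher, where it called 7.34% of all tested genes lower and 14.4% higher, and 16 were not called. Next to Nr0b1, 54307 bases away, the melanoma-antigen family gene Mageb4 stood at 5.62, 7.07 and 5.30 CPM in TPS lines and at 0.196, 0.441 and 0.0569 CPM in EPS lines (log2 fold change 4.68 ± 0.62 (SE), edgeR adjusted p = 0.00391), opposite in sign to Nr0b1. Next to Utf1, 33820 bases away, the metalloprotease gene Adam8 was higher in TPS lines, at 156, 29.2 and 53.4 CPM against 14.1, 18.9 and 15.1 CPM in EPS lines (log2 fold change 2.31 ± 0.56 (SE), edgeR adjusted p = 0.0256). Next to Sall4, Zfp64 was lower in TPS lines (log2 fold change -0.59 ± 0.13 (SE), edgeR adjusted p = 0.0176), and Gdf3, near Dppa3, is described above.

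Of the 45 ratios between members within a line, 16 did not overlap between the groups. The share of such ratios among pairs of other genes was not computed. Each of the 16 had a two-sided exact permutation p of 0.1 (0.281 after Benjamini-Hochberg adjustment over the 45 ratios), so none passed the threshold of 0.05. Many of the ratios have a gene in common and are not independent, and the count of 16 is a description only. The ratios of 6 members to Tcf15 differed by the most, from -2.25 (Dppa5a) to -1.74 (Sox2) on the log2 scale, TPS minus EPS. All 6 were lowest in TPS line 3, where Tcf15 was highest. The log2 ratio of Upp1 to Tcf15 was 2.56, 1.92 and -0.57 in TPS lines 1, 2 and 3. It was 3.97, 3.12 and 3.51 in EPS lines 1, 2 and 3. The place of these ratios in the order therefore rests in part on TPS line 3, and the order without it was not computed. Over all 6 lines, the next was the ratio of Dppa5a to Dppa3, which per exon length was 17.9, 33.0 and 18.2 in the TPS lines and 103, 35.3 and 63.3 in the EPS lines, without overlap. The difference of the mean log2 ratios, TPS minus EPS, was -1.48, and its two-sided exact permutation p of 0.1 is the smallest that 3 lines against 3 can give (0.281 after Benjamini-Hochberg adjustment over the 45 ratios between members).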
